A study of Mus musculus with 16 samples.

Results

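The 10 genes studied here are ones that the tumour suppressor p53 is known to switch on, out of 55421 gene IDs in the count table. They were followed in mouse liver before and after regeneration, with and without the histone chaperone HIRA in hepatocytes. They were picked by name as textbook p53 targets, by a rule that uses no measured value: Cdkn1a and Btg2, which restrain the cell cycle; Mdm2 and Ccng1, which act back on p53; Bax, Bbc3, Eda2r, Phlda3 and Trp53inp1, which promote cell death; and Gdf15, which encodes a secreted factor. The choice was made with earlier results of these data known. All 10 passed the filter on low counts, so none is missing from the tests over 23018 genes.

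PolyA RNA was measured in 16 bulk liver libraries, 4 each from control and HIRA KO animals at surgery and in the regrowing liver after partial hepatectomy. All were male C57BL/6 mice injected at 6 months of age with an AAV8 virus carrying a Tbg promoter, which acts in hepatocytes. The control labels name wildtype mice given either AAV8-Tbg-Cre or an AAV8-Tbg-saCas9 virus with a guide to Rosa26, and the HIRA KO labels name HIRA fl/fl mice given AAV8-Tbg-Cre or wildtype mice given saCas9 with a guide to HIRA. Lobes removed at surgery 4 weeks after injection are the livers before regeneration, and the liver that was left 5 days later is the liver after it, so regeneration cannot be told apart from the lobe or from how the tissue was collected. The data columns carry the group but neither the deletion approach nor the mouse, and their numbers are used below as names of libraries only.

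p53 is a transcription factor that is kept scarce by the ubiquitin ligase Mdm2 and accumulates when DNA is damaged or growth signals are abnormal. It binds paired copies of a short half-site near its targets, and the products of those genes stop the cell cycle, favour apoptosis, change metabolism or, like Mdm2, lower p53 again. In liver, p21 (the product of Cdkn1a) is known as a brake on hepatocyte division after resection, and several targets, among them Gdf15, Btg2 and Cdkn1a, also answer to other stress or growth signals.

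The libraries held 15103059 to 21738619 counts. Hira itself lay at 5.21 to 6.18 CPM (counts scaled to the library's size with TMM factors) in control and 3.13 to 4.38 CPM in HIRA KO livers before regeneration, and at 4.99 to 6.29 and 3.04 to 4.56 CPM after it, with no overlap at either time (log2 fold changes of -0.70 ± 0.17 and -0.69 ± 0.17, SE; edgeR adjusted p = 0.13 and 0.067). HIRA KO columns 1 and 2 stood apart from the other 12 libraries at both times, on a second principal component that took 26.5% of the variance. The summed level of 10 stellate cell and matrix genes was 719 and 520 CPM in those columns before regeneration, against 271 and 285 CPM in HIRA KO columns 3 and 4 and 241 to 270 CPM in control. After regeneration the sum was 525, 406, 355 and 418 CPM in HIRA KO livers, in column order, and 195 to 446 CPM in control. HIRA KO column 2 then lay within the control range. Results that change without the 4 libraries that stand apart are given with and without them. Such fits keep only HIRA KO columns 3 and 4 at each time. The 4 libraries were picked by their place in these same data, so these fits are no independent check. The 8 hepatocyte genes of a marker list summed to 105000 to 162000 CPM in all libraries, so the tissue carries its label, and in bulk liver fewer cells of a type and less RNA per cell cannot be told apart.

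The promoters of the members were searched for the p53 half-site, a palindrome of 10 bases that reads the same on both strands. The RefSeq promoter table (GRCm38.p6, 250 bases before to 50 after each start) held 9 of the 10 members, all but Trp53inp1. An exact half-site was found for 4 of the 9 (44.4%), for 7 of 22 other p53 targets (31.8%) and for 9.55% of all 27025 genes in the table. A stricter site of 20 bases, with 2 half-sites side by side and at most 1 mismatch outside their cores, a form chosen after the sequences were seen, was found for Cdkn1a alone among the members, for Rps27l among the other targets, and in 18 of 32851 promoter windows (0.0548%). The sites follow with their flanks, with the 20-base site and every exact half-site in capitals. The match is one of letters and does not show binding.
Cdkn1a (chr17:29090903-29090972, plus strand): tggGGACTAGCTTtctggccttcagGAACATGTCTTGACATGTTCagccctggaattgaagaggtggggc
Mdm2 (chr10:117710910-117710969, minus strand): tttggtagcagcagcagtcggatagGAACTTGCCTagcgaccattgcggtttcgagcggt
Ccng1 (chr11:40755437-40755496, minus strand): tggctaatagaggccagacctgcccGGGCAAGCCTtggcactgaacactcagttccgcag
Bax (chr7:45467065-45467124, minus strand): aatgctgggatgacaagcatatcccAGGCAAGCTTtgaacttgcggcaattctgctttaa
The 20-base site of Cdkn1a lies 51 to 32 bases before the RefSeq start, a separate half-site lies 73 to 64 bases before it, and the half-sites of Mdm2, Ccng1 and Bax begin 186, 185 and 201 bases before theirs. All 4 are upstream of the first exon of their gene in RefSeq, in sequence that is not transcribed from that start.

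Levels of different genes were compared per length, on the deposited FPKM values. Cdkn1a had the highest median over the 16 libraries, at 36.97 FPKM, followed by Bax at 28.75, Btg2 at 20.93, Trp53inp1 at 17.57, Ccng1 at 16.57, Mdm2 at 16.27, Gdf15 at 12.07, Bbc3 at 7.439, Phlda3 at 5.041 and Eda2r at 1.728 FPKM. Of the neighbours in this order, only Phlda3 and Eda2r kept it in 16 of 16 libraries. Gdf15 lay above Bbc3 in 14, Bbc3 above Phlda3 in 12 and Cdkn1a above Bax in 11 libraries, and Btg2 above Trp53inp1 in 7. Cdkn1a ranked 5 in control livers before regeneration and 1 in both groups after it. Btg2 moved the other way, from rank 2 to 8 in control and from 1 to 5 in HIRA KO livers. On another scale per length, CPM per kb of exon, Btg2 came first and Cdkn1a second, and Bax fell to rank 5.

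**Figure D1:**
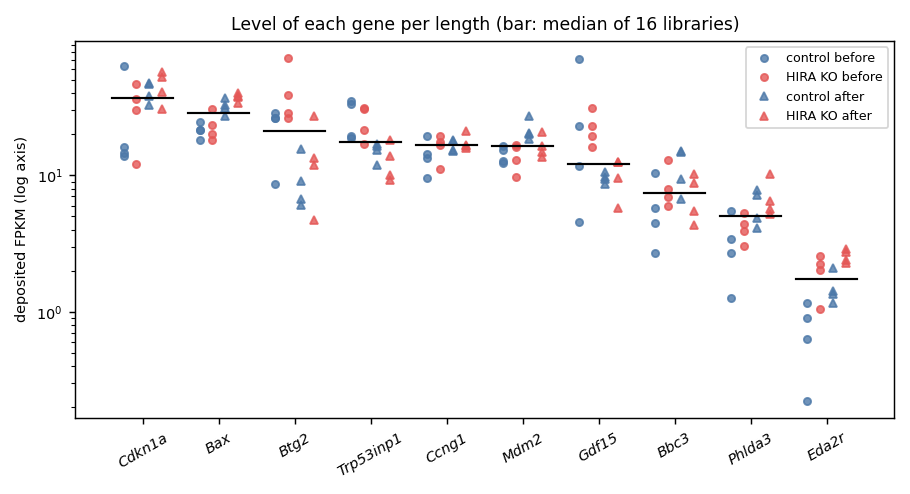
Deposited FPKM of the 10 p53 target genes (y axis, log scale) in each of 16 libraries, ordered by the median (bar), with circles for livers before and triangles for livers after regeneration. Cdkn1a is highest at a median of 36.97 FPKM, Eda2r lowest at 1.728 FPKM, and Btg2 and Gdf15 spread most.

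Before any comparison, the p53 targets differed widely between livers of the same group. Their median coefficient of variation (CV) was 49.1% in control livers before regeneration, against 13.2% over the 13170 tested genes with a mean of at least 1 CPM. After regeneration it was 12.5% in control, against 14.1% over all such genes, and 9 of the 10 members, all but Btg2, had a smaller CV than before, as did 46.5% of all such genes. In HIRA KO livers the members' median CV was 29.8% before and 28.5% after, with a smaller CV after for 6 of 10 members and for 40.1% of 13175 genes.

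The spread ran through the same livers, except in control livers after regeneration. There each column was highest for 2 or 3 members (23.0% to 29.0% of all genes) and lowest for 1 to 4 (22.9% to 28.3%). Control column 4 was the highest of its group before regeneration for 7 of the 10 members (Cdkn1a, Mdm2, Ccng1, Bax, Eda2r, Phlda3 and Trp53inp1), while it was highest for 29.0% of all genes tested. Control column 3 was highest for the other members, Btg2, Bbc3 and Gdf15, and lowest for Mdm2, Ccng1, Bax, Eda2r and Phlda3. Among HIRA KO livers, column 3 was highest for 7 members before and for 8 after regeneration (24.2% and 22.3% of all genes), and column 1 was lowest for 7 and 6 members (27.2% and 28.2% of all genes). HIRA KO column 1 is one of the libraries that stand apart. The part of tissue composition in these low values was not tested.

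**Figure D2:**
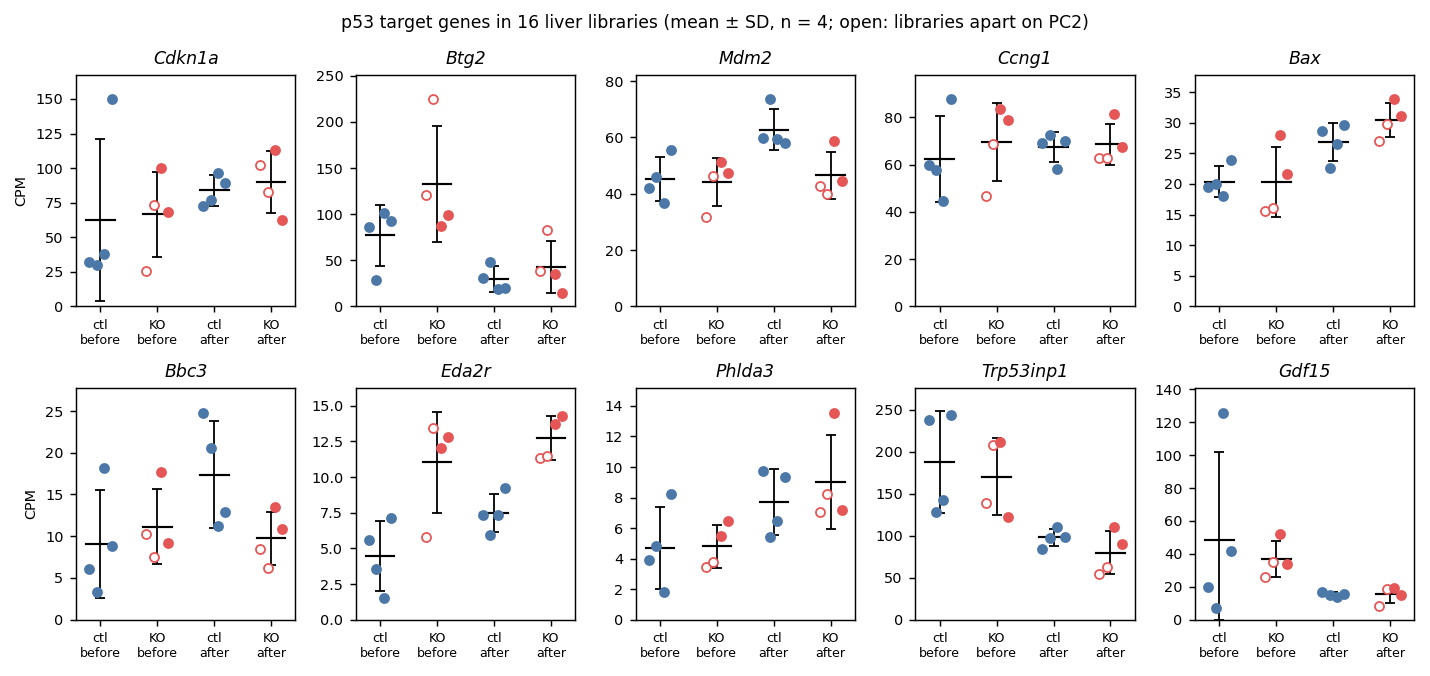
CPM (y axis) of each p53 target gene in the 4 groups; points are libraries in column order, lines and bars the mean ± SD (n = 4; lower bars end at 0), and open circles the 4 HIRA KO libraries that stand apart. Trp53inp1 lies lower after regeneration in both genotypes, and so does Btg2, with overlap in control. Eda2r lies higher in HIRA KO livers, with overlap before regeneration. The differences of Btg2 and Eda2r did not pass the edgeR test with all libraries. In 1 control liver Cdkn1a has 149.7 CPM.

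The first question was whether loss of HIRA changed the p53 targets. Eda2r, a receptor of the tumour necrosis factor family that binds ectodysplasin A2, was the member with the largest difference. Before regeneration it measured 5.57, 3.55, 1.49 and 7.16 CPM in control livers and 5.77, 13.5, 12.0 and 12.8 CPM in HIRA KO livers. After regeneration it measured 7.33, 5.96, 7.36 and 9.27 CPM in control and 11.3, 11.5, 13.8 and 14.3 CPM in HIRA KO livers. Every HIRA KO liver exceeded every control liver after regeneration, and before it only HIRA KO column 1 lay within the control range. The log2 fold changes were 1.31 ± 0.35 before and 0.76 ± 0.34 after (SE, n = 4 per group), and neither passed the test (edgeR adjusted p = 0.17 and 0.29; unadjusted p = 0.0021 and 0.041). DESeq2 called the difference before regeneration (1.33 ± 0.35, adjusted p = 0.016) and not the one after it. Without the libraries that stand apart, the differences were 1.49 ± 0.41 and 0.92 ± 0.40 (edgeR adjusted p = 0.47 and 0.42).

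Mdm2, the ligase that marks p53 for destruction, had lower values in HIRA KO livers after regeneration, which did not pass the test. It measured 42.2, 45.8, 36.9 and 55.5 CPM in control and 31.6, 46.3, 51.1 and 47.3 CPM in HIRA KO livers before regeneration. Afterwards the values were 59.6, 73.5, 59.6 and 57.9 CPM in control and 42.8, 40.0, 58.8 and 44.5 CPM in HIRA KO livers. Both genotypes overlapped before, and after regeneration HIRA KO column 3 alone reached the control range. The log2 fold change after regeneration was -0.43 ± 0.16, short of the test (edgeR adjusted p = 0.19, unadjusted p = 0.015), and without the libraries that stand apart it was -0.26 ± 0.15 (adjusted p = 0.58). The gene for p53 itself, Trp53, ran beside it: 28.6 to 35.4 CPM in control and 21.1 to 26.7 CPM in HIRA KO livers after regeneration (log2 fold change -0.37 ± 0.11, edgeR adjusted p = 0.11), with 21.1 to 27.7 and 22.4 to 24.2 CPM before. DESeq2 called Trp53 lower in HIRA KO livers after regeneration.

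Bbc3, which encodes the BCL2 antagonist PUMA, varied more than it differed. Before regeneration the values were 6.02, 3.33, 18.1 and 8.88 CPM in control and 10.2, 7.54, 17.7 and 9.21 CPM in HIRA KO livers. After regeneration they were 24.8, 20.5, 11.2 and 12.9 CPM in control and 8.43, 6.17, 13.5 and 10.9 CPM in HIRA KO livers. The 2 highest values after regeneration were both in control, but the groups overlapped. The log2 fold change after regeneration was -0.83 ± 0.45 (edgeR adjusted p = 0.39), and -0.49 ± 0.62 (adjusted p = 0.85) without the libraries that stand apart, which hold the lowest Bbc3 values of that group.

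The remaining members differed between genotypes by less than their errors or little more. Cdkn1a had log2 fold changes of 0.10 ± 0.51 before and 0.10 ± 0.50 after regeneration, Ccng1 of 0.15 ± 0.19 and 0.03 ± 0.19, and Bax of 0.00 ± 0.16 and 0.18 ± 0.16. For Btg2 they were 0.78 ± 0.53 and 0.54 ± 0.53, for Phlda3 0.03 ± 0.37 and 0.22 ± 0.35, for Trp53inp1 -0.14 ± 0.25 and -0.30 ± 0.25, and for Gdf15 -0.40 ± 0.62 and 0.00 ± 0.64. Without the libraries that stand apart, the difference of Btg2 was 0.28 ± 0.57 before and -0.21 ± 0.60 after regeneration, and that of Trp53inp1 after regeneration was 0.06 ± 0.29. Without control before column 3 the difference of Gdf15 before regeneration turned to 0.70 ± 0.46. With errors of 0.5 or more, a change of Cdkn1a, Btg2 or Gdf15 by a whole log2 unit was not detectable here.

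In count, edgeR called 0 of the 10 p53 targets in either comparison of HIRA KO with control. Among all genes it called 0.0391% before and 0.491% after regeneration. At an unadjusted p under 0.05 there was 1 member before (Eda2r) and 2 after (Eda2r and Mdm2). DESeq2 called 1 member before, where it called 1.63% of all genes, and 0 after, where it called 3.95%. Without the libraries that stand apart edgeR again called 0 members at both times, against 0.0233% and 0.0698% of all genes. Groups did not overlap for 0 members before and for 1 after (Eda2r), against 8.07% and 8.10% of all genes. The median log2 fold change of the members was 0.06 before and 0.06 after, beside 0.01 and 0.02 over all genes. Without the libraries that stand apart it was 0.32 before, with 8 of 10 members higher, and 0.12 after, with 7 higher. Over all genes the medians of that fit were -0.03 and 0.00. With only HIRA KO column 3 of the same time left out, the members' median was -0.08 before and -0.03 after. Then 3 of 10 members were higher at each time, so the sign of the median depended on 1 library.

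**Figure D3:**
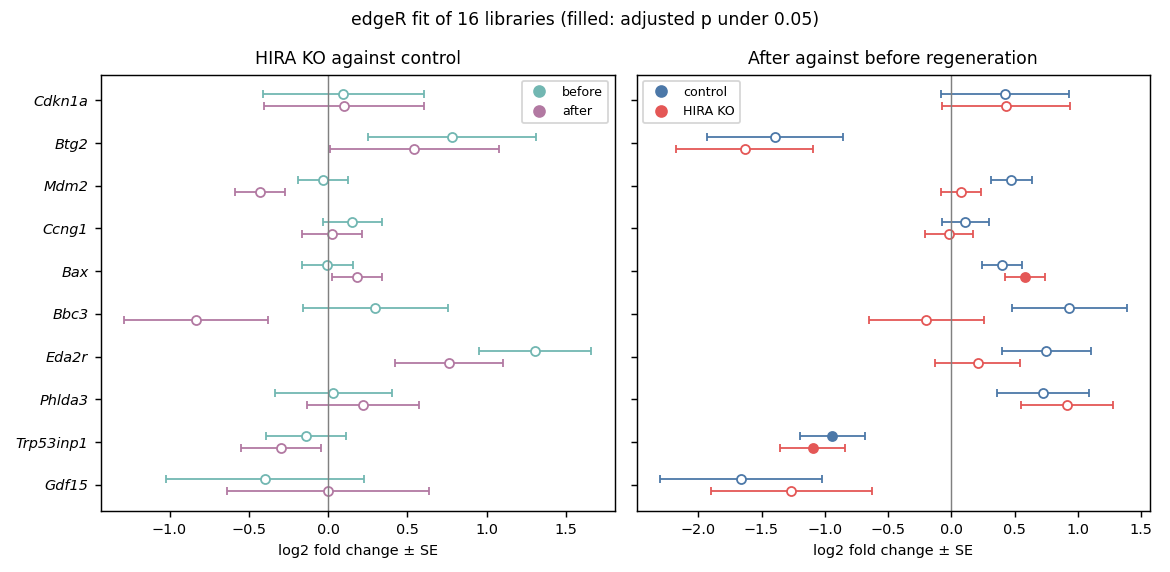
Log2 fold change ± SE of each p53 target gene from the edgeR fit of 16 libraries, for HIRA KO against control (left) and for livers after against before regeneration (right); filled points have an adjusted p under 0.05. No member is filled on the left, where Eda2r before regeneration lies farthest right at 1.31, and on the right Trp53inp1 is filled in both genotypes and Bax in HIRA KO.

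The second question was how the p53 targets differed between livers after and before regeneration. These comparisons use the same groups as the first ones, so that a high or low group enters both. Trp53inp1, a stress protein that favours cell death and autophagy, was the one member that edgeR called lower in both genotypes. Control livers had 238, 128, 143 and 244 CPM before and 84.6, 97.8, 110.3 and 99.0 CPM after regeneration. HIRA KO livers had 139, 208, 211 and 123 CPM before and 55.0, 63.1, 111.0 and 89.8 CPM after. Every liver after regeneration lay below every liver before it in the same genotype. The log2 fold changes were -0.94 ± 0.25 in control (edgeR adjusted p = 0.026) and -1.10 ± 0.26 in HIRA KO livers (adjusted p = 0.012). With 1 library left out at a time, the call in control held in 2 of 8 fits, with an adjusted p of up to 0.088 (without control before column 4; 0.083 without control before column 1, and 0.051 to 0.068 without any 1 control library after regeneration). In HIRA KO livers all 8 such fits called it, but without the libraries that stand apart the fall was -0.72 ± 0.33 (adjusted p = 0.21).

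Bax, which opens the outer mitochondrial membrane in apoptosis, rose in HIRA KO livers. It measured 15.6, 16.1, 27.9 and 21.6 CPM before and 27.1, 29.8, 33.8 and 31.1 CPM after regeneration in HIRA KO, and 19.5, 19.96, 18.0 and 24.0 CPM before and 28.7, 22.5, 26.5 and 29.7 CPM after in control livers. Only the highest liver before regeneration, HIRA KO column 3, reached into the range after it among HIRA KO livers, and in control column 4 did the same. The log2 fold change was 0.58 ± 0.16 in HIRA KO (edgeR adjusted p = 0.023) and 0.40 ± 0.16 in control livers (adjusted p = 0.13). The call in HIRA KO livers was lost without HIRA KO before column 1 (0.49, adjusted p = 0.054), without column 2 before (0.51, adjusted p = 0.065), without column 3 after (0.54, adjusted p = 0.066) and without the libraries that stand apart (0.41 ± 0.17, adjusted p = 0.13).

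Mdm2 did not overlap in control livers, with 36.9 to 55.5 CPM before and 57.9 to 73.5 CPM after regeneration, and overlapped in HIRA KO livers. Its log2 fold change was 0.47 ± 0.16 in control (edgeR adjusted p = 0.068) and 0.08 ± 0.16 in HIRA KO livers (adjusted p = 0.81). DESeq2 called the control value (0.48 ± 0.17, adjusted p = 0.037), as did edgeR without control before column 4 (0.58, adjusted p = 0.046) and without the libraries that stand apart, where the pooled spread is smaller (0.47 ± 0.13, adjusted p = 0.015). The difference between the genotypes was -0.40 ± 0.23 (edgeR adjusted p = 0.77).

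Cdkn1a, whose product inhibits the cyclin-dependent kinases that start DNA replication, was decided by 1 control liver. Control livers had 31.8, 30.2, 38.2 and 149.7 CPM before and 72.7, 77.0, 96.5 and 89.6 CPM after regeneration. HIRA KO livers had 25.6, 73.4, 99.8 and 68.4 CPM before and 102.2, 82.9, 112.8 and 62.2 CPM after. Of the control livers before regeneration, 3 lay below all control livers after it and the other above all of them. With all libraries the log2 fold change was 0.43 ± 0.51 in control and 0.43 ± 0.51 in HIRA KO livers (edgeR adjusted p = 0.69 and 0.64). Without control before column 4 it was 1.32 ± 0.35 in control, past the test (adjusted p = 0.036), and Cdkn1a before regeneration was then 0.99 ± 0.34 higher in HIRA KO than in control livers (adjusted p = 0.33). That library was also the highest of its group for 6 other p53 targets, as given above.

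Btg2, an antiproliferative partner of the RNA deadenylase complex, and Gdf15, a hormone released by stressed cells, had the largest falls in value. Btg2 went from 86.5, 28.5, 101.2 and 92.6 CPM to 30.6, 48.7, 18.6 and 19.6 CPM in control and from 120.4, 224, 87.4 and 99.1 CPM to 38.5, 82.9, 34.7 and 15.0 CPM in HIRA KO livers. It did not overlap in HIRA KO livers, and in control only column 2 before regeneration reached the range after it. The log2 fold changes of Btg2 were -1.39 ± 0.54 and -1.63 ± 0.54 (edgeR adjusted p = 0.13 and 0.067; DESeq2 adjusted p = 0.020 and 0.0050). Without HIRA KO after column 2, the highest of its group, edgeR called the fall in HIRA KO livers (-2.15 ± 0.54, adjusted p = 0.026).

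Gdf15 went from 20.04, 7.05, 125.8 and 41.6 CPM to 16.9, 15.2, 13.6 and 15.7 CPM in control and from 26.1, 35.3, 52.3 and 33.8 CPM to 8.20, 18.8, 19.3 and 15.0 CPM in HIRA KO livers. Control livers before regeneration spanned 17.9 times from lowest to highest and those after it 1.24 times. The groups did not overlap in HIRA KO livers and overlapped in control. The log2 fold changes were -1.66 ± 0.64 and -1.27 ± 0.64 (edgeR adjusted p = 0.13 and 0.22), and only the control value was called by DESeq2 (adjusted p = 0.036). In a fit of only the groups compared, edgeR called the fall in HIRA KO livers (adjusted p = 0.044). Without control before column 2, the lowest, edgeR called Gdf15 lower in control (-2.02 ± 0.50, adjusted p = 0.030). Without control before column 3, the highest at 125.8 CPM, the fall shrank to -0.56 ± 0.46 (adjusted p = 0.54).

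Other genes that answer quickly to tissue handling or stress were read beside these 2. A list of 10 immediate early genes (Fos, Jun, Egr1 and others; Btg2 is not in the list) summed to 830, 418, 1030 and 699 CPM in control and 1150, 1620, 725 and 689 CPM in HIRA KO livers before regeneration, and to 175 to 262 and 183 to 376 CPM after it. The library with the lowest Btg2 before regeneration, control column 2, had the lowest sum, and the library with the highest Btg2, HIRA KO column 2, the highest. After regeneration HIRA KO column 2 was again highest in both, but the library with the lowest Btg2, HIRA KO column 4 at 15.0 CPM, had a sum of 244 CPM, above the lowest sum of 175 CPM. In this list 7 genes fell in control and 8 in HIRA KO livers, such as Dusp1, a phosphatase that ends MAP kinase signals (-2.52 ± 0.33, edgeR adjusted p = 0.00057 in control). With the libraries that stand apart left out, 7 still fell in control but 2, Fosb and Zfp36, in HIRA KO livers, with medians of -1.63 and -1.73. The integrated stress response list, 9 genes, summed to 339 to 585 CPM before and 457 to 692 CPM after regeneration in control livers. There 1 of its genes rose and 1 fell, with a median log2 fold change of 0.17, while Gdf15 fell. In HIRA KO livers the sums were 405 to 568 CPM before and 260 to 502 CPM after, with a median of -0.03. No gene of that list was called there by edgeR with all libraries, and Asns was called higher without the libraries that stand apart. The part of either in Btg2 or Gdf15 was not tested.

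**Figure D4:**
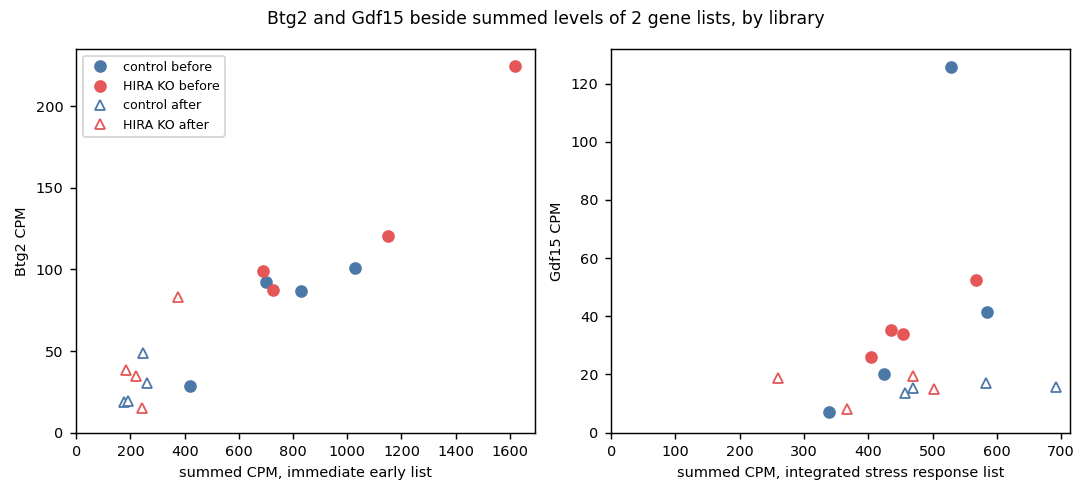
CPM of Btg2 against the summed CPM of 10 immediate early genes (left) and of Gdf15 against that of 9 integrated stress response genes (right), 1 point per library, filled circles before and open triangles after regeneration. Btg2 is lowest before regeneration (28.5 CPM) where the immediate early sum is lowest (418 CPM) and highest (224 CPM) where the sum is highest (1620 CPM), while Gdf15 peaks at 125.8 CPM in a library with a sum of 529 CPM.

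Of the other members, Eda2r had log2 fold changes of 0.75 ± 0.35 in control and 0.21 ± 0.34 in HIRA KO livers (edgeR adjusted p = 0.21 and 0.75). Phlda3, a small protein that opposes AKT, went from 1.83 to 8.23 CPM before to 5.39 to 9.77 CPM after regeneration in control and from 3.44 to 6.45 CPM to 7.07 to 13.6 CPM in HIRA KO livers, where the groups did not overlap (log2 fold changes 0.72 ± 0.36 and 0.91 ± 0.36, edgeR adjusted p = 0.25 and 0.12). Bbc3 was 0.93 ± 0.45 higher in control livers after regeneration (adjusted p = 0.24), called without control before column 3, its highest (1.52 ± 0.40, adjusted p = 0.033), and -0.20 ± 0.45 in HIRA KO livers (adjusted p = 0.83). Ccng1, a cyclin that brings a phosphatase to Mdm2, was the steadiest p53 target: its mean went from 62.5 ± 18.1 to 67.4 ± 6.46 CPM in control and from 69.5 ± 16.5 to 68.7 ± 8.68 CPM in HIRA KO livers (SD, n = 4).

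In count, edgeR called 1 of the 10 p53 targets in control, Trp53inp1, against 10.2% of all genes tested, and 2 in HIRA KO livers, Trp53inp1 and Bax, against 12.0%. DESeq2 called 4 in control (Btg2, Trp53inp1 and Gdf15 lower, Mdm2 higher), where it called 14.3% of all genes, and 3 in HIRA KO livers (Btg2 and Trp53inp1 lower, Bax higher), where it called 15.9%. Without the libraries that stand apart edgeR called 3 members in control (Mdm2 and Bax higher, Trp53inp1 lower; 17.9% of all genes) and 0 in HIRA KO livers (10.3%; 2 members at an unadjusted p under 0.05). Groups did not overlap for 2 members in control, against 19.0% of all genes, and for 4 in HIRA KO livers, against 16.1%. With 10 genes, the edgeR share in control lay near that of all genes, and the one in HIRA KO livers rests on 2 genes. The members' median log2 fold change was 0.41 in control and 0.03 in HIRA KO livers, beside 0.00 and 0.02 over all genes, and it covers both rises and falls.

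The third question was whether regeneration changed the p53 targets differently in HIRA KO livers. In the edgeR interaction term 0 of the 10 members and 0% of all genes (0 of 23018) were called, with 0 members and 1568 genes at an unadjusted p under 0.05. DESeq2 called 0 members and 0.291% of all genes. Without the libraries that stand apart edgeR called 0 members and 0% of all genes. The largest values among the members were those of Bbc3, -1.13 ± 0.64, and Eda2r, -0.54 ± 0.49 (adjusted p = 0.77 and 0.86). An effect in one genotype and not in the other, as for Bax, was therefore not shown to differ between them.

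Genes that act on p53 were read from a list of 12. Trp53 itself was 0.34 ± 0.11 higher after regeneration in control (edgeR adjusted p = 0.051) and 0.06 ± 0.11 in HIRA KO livers (adjusted p = 0.77). Mdm4, a partner of Mdm2 that holds p53 inactive, had 31.2 to 42.2 CPM before and 46.9 to 52.6 CPM after regeneration in control livers (0.40 ± 0.13, adjusted p = 0.054) and 0.14 ± 0.13 in HIRA KO livers (adjusted p = 0.53). Of the 12 regulators, 2 rose in control after regeneration, where edgeR called 10.2% of all genes. They were the DNA damage checkpoint kinases Chek1 (2.04 ± 0.42, adjusted p = 0.0049) and Chek2 (1.02 ± 0.28, adjusted p = 0.026). In HIRA KO livers, where 12.0% of all genes were called, 1 rose, Chek1 (1.27 ± 0.40, adjusted p = 0.045). Hipk2, a kinase that phosphorylates p53, was the one regulator that edgeR called between genotypes: it was lower in HIRA KO livers after regeneration (log2 fold change -0.92 ± 0.18, adjusted p = 0.039), a call lost without the libraries that stand apart (-0.68 ± 0.16, adjusted p = 0.16). DESeq2 called Hipk2 and Trp53 lower and Ppp1r13l higher in HIRA KO livers there. In the edgeR fit Ppp1r13l was 0.96 ± 0.29 higher (adjusted p = 0.13). In the fit of the other 12 libraries edgeR called 4 regulators higher in control after regeneration, Trp53 (adjusted p = 0.046) and Mdm4 (adjusted p = 0.014) beside Chek1 and Chek2.

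A wider list of 30 other p53 targets was counted in the same fits. Before regeneration 0 of 30 were called between genotypes by edgeR, and after it 1, Ak1, an adenylate kinase, which was higher in HIRA KO livers (mean 4.23 against 0.657 CPM, 2.65 ± 0.52, adjusted p = 0.039; 2.05 ± 0.49 and adjusted p = 0.17 without the libraries that stand apart). After regeneration 5 of 30 rose and 1 fell in control, where 10.2% of all genes were called, and 3 rose in HIRA KO livers (Psrc1, Ak1 and Ckap2), where 12.0% of all genes were called. With those libraries left out 29 of the 30 were tested, and 7 rose and 1 fell in control and 3 rose in HIRA KO livers. The control calls with the smallest adjusted p were Psrc1 (3.44 ± 0.27, adjusted p = 3.47e-06), Tnfrsf10b, a death receptor (1.40 ± 0.22, adjusted p = 0.00088), Ckap2 (5.41 ± 1.06, adjusted p = 0.0066) and Apaf1, the core of the apoptosome (0.81 ± 0.18, adjusted p = 0.0079). Psrc1 and Ckap2 encode proteins of the mitotic spindle. They rose together with a list of 10 mitosis genes, of which 10 rose in both genotypes, with median log2 fold changes of 4.86 in control and 3.23 in HIRA KO livers. In the fit of the other 12 libraries the medians were 4.86 and 5.37, and 8 of the 10 were called in HIRA KO livers, so the order of the genotypes turned round. The median over the 30 targets was 0.18 in control and 0.02 in HIRA KO livers.

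**Figure D5:**
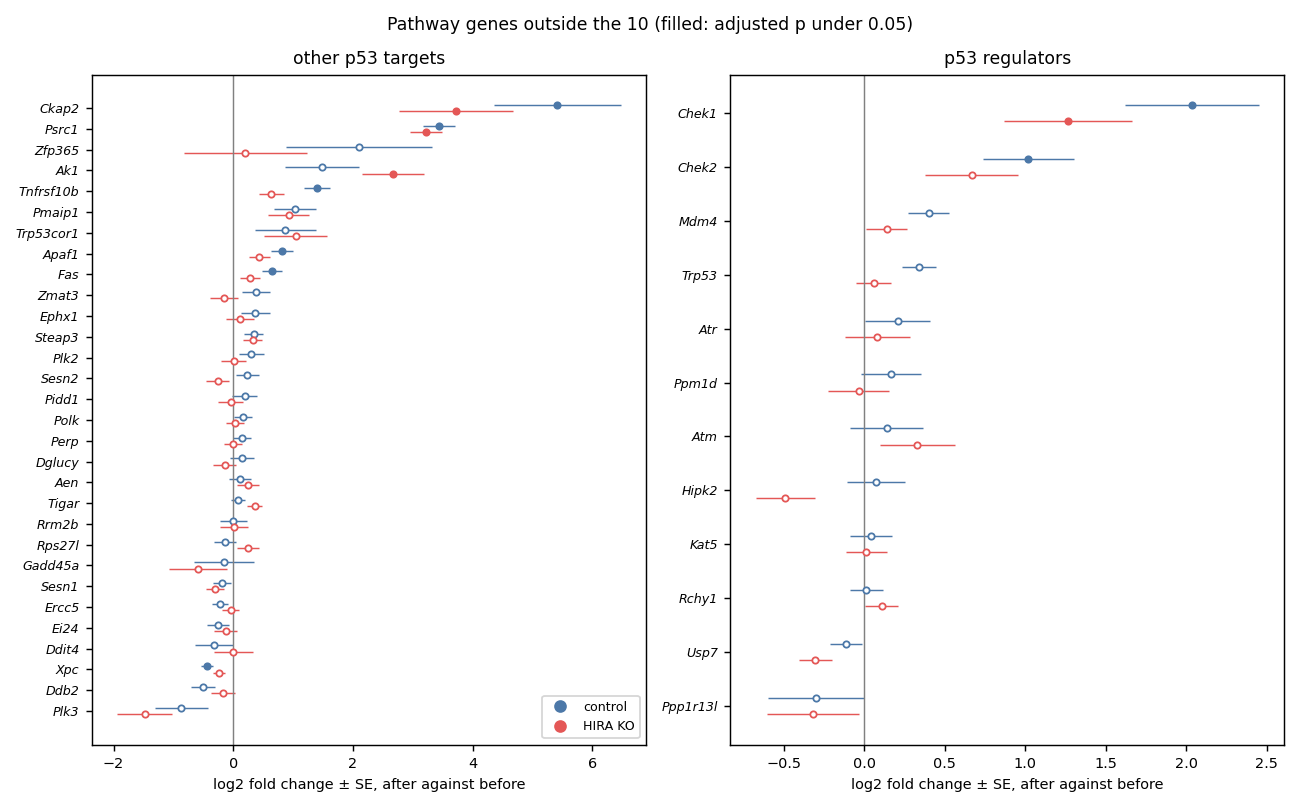
Log2 fold change ± SE after against before regeneration of 30 other p53 targets (left) and 12 regulators of p53 (right), in control (blue) and HIRA KO livers (red); filled points have an edgeR adjusted p under 0.05. The filled genes at the top, Ckap2 and Psrc1 on the left and Chek1 on the right, are those with the largest rises, and most genes lie within 1 unit of 0.

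Relatives of the members gave a further comparison. Cdkn2c and Cdkn2d, which like Cdkn1a encode inhibitors of cyclin-dependent kinases, rose in control livers after regeneration (2.78 ± 0.34 and 1.26 ± 0.25; edgeR adjusted p = 0.00022 and 0.0041), as did Cdkn2c in HIRA KO livers (1.94 ± 0.32, adjusted p = 0.0016), so 2 and 1 of 6 in that list were called. Bak1, which like Bax opens the mitochondrial membrane, rose in both genotypes (0.90 ± 0.12 and 1.08 ± 0.12, adjusted p = 0.00022 and 5.9e-05), while its family members Bid, Bik and Bmf fell in control (-0.48 ± 0.12, -1.13 ± 0.31 and -1.54 ± 0.45; adjusted p = 0.017, 0.026 and 0.045). Tob1, a relative of Btg2, fell in both (-0.94 ± 0.20 and -0.93 ± 0.20, edgeR adjusted p = 0.0071 and 0.0073). Btg3 rose in control (1.51 ± 0.37, adjusted p = 0.015). Without the libraries that stand apart edgeR called Btg3 higher in HIRA KO livers too, and the relatives Mdm4, Phlda2 and Bcl2 higher in control. With all libraries 10.2% of all genes were called in control and 12.0% in HIRA KO livers. None of the 6 CDK inhibitors, 12 BCL2 family genes or 13 tested paralogs was called by edgeR between the genotypes.

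Other cells of the liver changed beside the p53 targets. All 9 macrophage genes rose after regeneration in both genotypes (8 in each without the libraries that stand apart), and their summed level went from 153 to 425 CPM to 739 to 930 CPM in control and from 248 to 264 CPM to 748 to 1080 CPM in HIRA KO livers. None of the 9 was at 0 in any group. Clock genes differed as well: edgeR called 8 of 13 lower in control (10.2% of all genes called) and 1, Nr1d1, in HIRA KO livers (12.0%). The edgeR interaction test called 0 of the 13. Their median log2 fold changes were -1.66 in control and -0.32 in HIRA KO livers. Without the libraries that stand apart the medians were -1.67 and -1.14. In that fit 9 genes fell in control, and Per2 and not Nr1d1 was called in HIRA KO livers. Ciart, a repressor in the circadian loop, was higher in HIRA KO livers after regeneration (4.76 ± 0.77, edgeR adjusted p = 0.038). Without the libraries that stand apart its difference was 2.94 ± 0.44 (edgeR adjusted p = 0.021). The part of macrophages or of clock phase in the values of the p53 targets was not tested.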

How the data were processed

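PolyA RNA of 16 liver samples was sequenced from directional libraries. The authors deposited gene counts and FPKM values per library. Per the study's methods, reads were trimmed, aligned to mm10 with STAR and counted with HOMER; the submitters' processing notes list STAR, HTSeq and Cufflinks without roles, so which tool gave the deposited counts and FPKM is not given in the sources used here. Empty FPKM cells (48.6% to 54.7% per library) were read as 0. FPKM sums of 694000 to 2110000 per library limit comparisons between libraries, so deposited FPKM values served for levels between genes.

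Genes with a total of at least 10 counts (23018) were tested with the quasi-likelihood test of edgeR 4.0.16 (R 4.3.3) with TMM factors (0.915 to 1.10) and 1 fit of the 4 groups; p-values were adjusted by Benjamini-Hochberg over all genes, with a threshold of 0.05. The SE given with an edgeR fold change was worked back from the test, as the size of the change over the square root of its F value. Alternatives used DESeq2 1.42.0, limma 3.58.1 on log2(FPKM + 1) or log2(FPKM + 0.1), other scalings and filters, and fewer libraries. The scripts were tested on simulated data. A level of 1 CPM is 14.7 to 22.5 reads in these libraries. Positions come from RefSeq GRCm38.p6 promoters.

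The members and all lists were chosen with earlier results of these data known. All 10 members, Hira, Trp53 and Mdm4 are named throughout, and of every other list up to 4 called genes per comparison with the smallest adjusted p. The columns do not name the mouse, so p-values measure only the spread between these samples, part of which may be technical. By the study's methods, removed lobes and regrown liver come from the same operated mice. The tests after against before regeneration and the interaction test treat such libraries as independent. Exons of Bax overlap Gm45808 on the same strand by 192 bases, where 0.0269 CPM were counted.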

Additional observations from a re-analysis of the deposited data

Results flagged for a closer look

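Over the 40 groups of 4 libraries (10 p53 targets in 4 groups), 2 held a library far from the other 3 by Dixon's ratio of the gap to the range, past its critical value for 4 values; chance alone flags about 1 in 20 groups. Cdkn1a in control livers before regeneration had a ratio of 0.933, with 149.7 CPM in column 4 and 38.2 CPM in the next library. Mdm2 in control livers after regeneration had a ratio of 0.889, with 73.5 CPM in column 2 and 59.6 CPM in the next. No group effect on a member differed between genotypes by the interaction test.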

How the results depend on the processing

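Of 970 values of the members' 50 log2 fold changes under alternatives, 0 reversed a called direction, 17 lost and 21 gained a call, and 92 values that were never called changed sign. Called members in control after against before regeneration numbered 1 as reported, 2 with total counts only, 0 with no filter on low counts, 2 with filterByExpr, 4 with DESeq2, 3 in a fit of the groups compared, 0 with limma on unfiltered FPKM and 3 without the libraries that stand apart, and ranged from 0 to 2 when 1 library was left out. In HIRA KO livers they numbered 2 as reported, 1 with limma on unfiltered FPKM, 0 without the libraries that stand apart, 3 with filterByExpr (Btg2 added), 3 with DESeq2 and 3 with limma on filtered log2(FPKM + 1), and 1 to 3 when 1 library was left out. Between genotypes before regeneration they numbered 0, and 1 with DESeq2; after regeneration, and in the interaction, 0 under every alternative run. Calls over all genes after against before regeneration shifted with the settings too. In control they numbered 1390 higher and 960 lower of 23018 as reported, and 1604 and 1129 of 15201 with filterByExpr. They numbered 1812 and 1463 of 20144 in a fit of the groups compared, and 1011 and 324 of 40419 with limma on unfiltered FPKM. In HIRA KO livers they numbered 1492 and 1272 as reported, and 1743 and 1372 with filterByExpr. The cause of these shifts was not tested, apart from the fewer libraries of the fits that left some out.

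Over all genes DESeq2 called 375 before and 910 after regeneration between genotypes where edgeR called 9 and 113, and 67 against 0 in the interaction; without the libraries that stand apart edgeR called 5, 15, 3858 in control after regeneration (2350 with all libraries) and 0 in the interaction. With total counts only, the median of all genes after against before regeneration in HIRA KO livers was 0.14 (0.02 with TMM), and calls split into 2015 higher and 693 lower there (1492 and 1272 with TMM), 1511 and 745 in control (1390 and 960), and 39 and 12 for HIRA KO against control after regeneration (46 and 67). Bax and Trp53inp1 kept their direction and call in HIRA KO livers under this scaling. Ranks of the members' levels changed for 6 of 10 genes on CPM per kb. No paired analysis was possible because the columns carry neither the labels' replicate numbers nor the deletion approach. Depth limits Eda2r and Phlda3 most, with as few as 26 and 32 reads in a library.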
